A study of Mus musculus with 118 samples.

Results

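The cells compared here were single somatostatin-expressing (SOM+) interneurons of primary somatosensory cortex (S1), 16 from layer 5 (L5) and 16 from layer 4 (L4), together 32 of the 55 S1 cells of the series, which also held 63 cells of primary visual cortex (V1). They were chosen by the area and layer in the labels and by a label date in June or July, the months that held every L5 cell. A cell was kept with at least 1500 genes above 0 counts, *Slc17a7* counts not above the sum of *Gad1* and *Gad2*, and at least 1 *Sst* read. All 16 labelled S1 L5 cells of these months passed, as did 16 of 20 labelled S1 L4 cells, the other 4 having no *Sst* read.

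All cells came from adult SOM-Cre/Ai9 mice without a treatment. In this line Cre recombinase driven by the somatostatin gene switches on the red fluorescent protein tdTomato, so cells that made somatostatin at any time are labelled, including some fast-spiking basket cells. After electrophysiological recording the cytosol of a neuron was drawn into the pipette (Patch-seq) and its RNA was turned into a sequencing library without molecular identifiers. For comparison, 17 L5 and 21 L4 cells of V1 from the same months and 18 S1 L4 cells with September dates passed the same filters. The labels name no mouse, so each layer was treated as 1 sample, no test was run on cells, and SDs over cells describe only how the cells varied.

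SOM+ interneurons are inhibitory cells that mostly target the dendrites of other neurons. In L5 many are Martinotti cells, whose axon climbs to layer 1. In contrast, SOM+ cells in L4 of S1 are known for an axon that stays largely within the layer. It contacts local excitatory cells as well as other interneurons. Both kinds arise from the medial ganglionic eminence (MGE) and share genes such as *Sst*, *Gad1*, *Lhx6* and *Sox6*, while peptides, adhesion proteins and ion channel subunits vary among them.

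The total count on genes ran from 128379 to 2535406 per L5 cell, with a median of 1119171, and from 499521 to 3040454 per L4 cell, with a median of 1095508. L5 cells had 6952 ± 1624 genes with a read and L4 cells 6282 ± 1632 (mean ± SD over cells, *n* = 16 each). With every cell thinned to 250000 reads, which left out 1 shallow L5 cell, the means were 6552 ± 1252 and 5793 ± 1447. The medians were 7571.5 in L5 and 6111 in L4, and 6795 and 5650.5 after thinning. More genes were thus detected in L5 in both cases, although the means differed by less than the SD over cells. Levels are given as counts scaled to the same total in every cell (CPM) or as log2(CPM + 1), and a difference is the mean of log2(CPM + 1) over L5 cells minus that over L4 cells. The 4 L4 cells dated 5 June and 3 of the L5 cells stood apart from the rest of their layer, as described below. Reads of genes that overlap on opposite strands cannot be told apart in these counts.

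The cyclic AMP response element (CRE), read as TGACGTCA on both strands, is the element through which cyclic AMP acts on *Sst*, the gene by which the cells were chosen. It was looked for in the 250 bases before the RefSeq start of genes on the GRCm38.p6 build, and 508 of 32851 such windows (1.55%) held it. Of the 12 genes with the largest difference toward L4 described below, 10 were in the promoter table and 1, *Ptpru*, had a CRE. Of the 12 genes with the largest difference toward L5, 9 were in the table and 0 had one. The windows of *Sst* (chr16:23890845-23891094, minus strand), *Ptpru* (chr4:131838279-131838528, minus strand) and *Crhbp* (chr13:95444832-95445081, minus strand) are shown, the last as that of the gene with the largest difference toward L4. Each is read 5′ to 3′ toward the start, with the CRE in capitals.
Sst: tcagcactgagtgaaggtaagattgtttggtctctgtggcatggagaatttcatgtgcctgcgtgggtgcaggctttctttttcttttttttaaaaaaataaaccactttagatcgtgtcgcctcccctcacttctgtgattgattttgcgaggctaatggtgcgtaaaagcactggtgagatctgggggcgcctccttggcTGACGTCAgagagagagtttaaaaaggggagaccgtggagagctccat
Ptpru: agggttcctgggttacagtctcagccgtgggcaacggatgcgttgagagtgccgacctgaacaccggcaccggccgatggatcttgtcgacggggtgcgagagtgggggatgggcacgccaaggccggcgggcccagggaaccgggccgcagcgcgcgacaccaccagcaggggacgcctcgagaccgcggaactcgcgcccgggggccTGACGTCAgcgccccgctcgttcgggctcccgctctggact
Crhbp: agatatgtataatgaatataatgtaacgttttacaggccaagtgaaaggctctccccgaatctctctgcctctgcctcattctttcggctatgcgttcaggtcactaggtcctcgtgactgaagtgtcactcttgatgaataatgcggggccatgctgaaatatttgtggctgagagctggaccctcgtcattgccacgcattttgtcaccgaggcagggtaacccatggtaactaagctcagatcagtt
The CRE began 48 bases before the start of *Sst* and 41 bases before that of *Ptpru*, and these letters were not in the *Crhbp* window. A match of letters is a description of the sequence and no measure of binding.

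Of 6492 genes with at least 32 counts in at least 10 of the 32 cells, 223 were higher in L5 by 2 or more on the log2 scale with the same sign on each of the 3 dates that held at least 2 cells of each layer (3.43% of the genes). By the same measure 78 were higher in L4 (1.2%). Without the condition on dates the shares were 5.39% (350 genes) toward L5 and 1.74% of the genes toward L4. The median difference over all 6492 genes was 0.27 toward L5, and with that median taken off every difference, an alternative added after seeing the data, the shares were 2.17% and 2.05%. L5 thus held 74.1% of the called genes as measured and 51.5% after this centring. The shares toward L5 and L4 were 6.93% and 1.82% without 26 June, 4.44% and 2.91% without 27 June, and 5.94% and 2.26% without 3 July. In each of these the condition on sign covered 2 dates instead of 3. Fewer dates make it easier to meet, so these shares are not like measures of those over all dates.

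**Figure D1:**
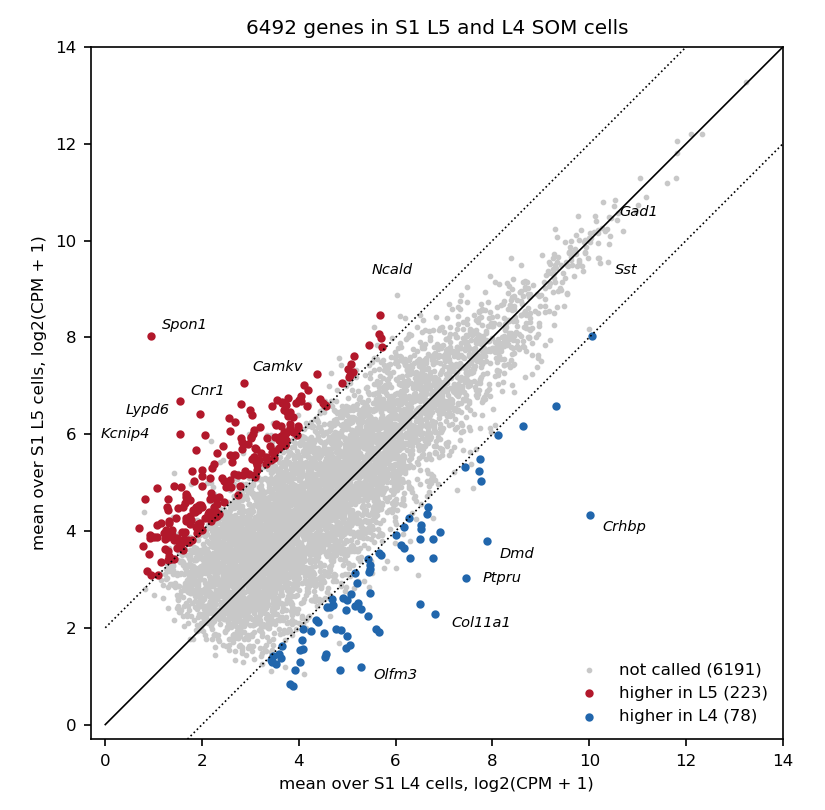
Each point is 1 of 6492 genes, with its mean log2(CPM + 1) over the 16 S1 L4 cells on the x axis and over the 16 S1 L5 cells on the y axis. The solid line marks equal means and the dotted lines a difference of 2. The 223 red genes (higher in L5) and 78 blue genes (higher in L4) also kept 1 sign on the 3 dates, and *Spon1* (7.09) and *Crhbp* (-5.68) lay farthest from the line on either side.

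*Spon1* (chromosome 7, 113765998 to 114043370, mm10), which encodes the secreted matrix protein spondin 1, had the largest difference toward L5. In L5 it ran from 0 to 2181 CPM with a median of 958, and in L4 from 0 to 34.03 CPM with a median of 0. It had reads in 14 of 16 L5 cells (87.5%, 95% Clopper-Pearson interval 61.7 to 98.4) and in 5 of 16 L4 cells (31.2%, 11.02 to 58.7). Of the L5 cells, 13 lay above every L4 cell, at 140.2 to 2181 CPM, and the other 3 were at 0 to 1.39 CPM, within the range of L4. The mean log2(CPM + 1) was 8.04 ± 3.89 in L5 and 0.95 ± 1.77 in L4, a difference of 7.09, and on 26 June, 27 June and 3 July it was 8.80, 6.21 and 7.38. Pooled over cells the level was 877 CPM in L5 (95% Poisson interval 864 to 890.1) and 3.03 CPM in L4 (2.33 to 3.86). Both kinds of interval cover counting error only. They leave out the spread between mice and dates, which cells share, and copies made by PCR were counted as separate reads.

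*Dmd* and *Olfm3* lay on the L4 side. *Dmd* (chromosome X, 82948870 to 85206141), the gene of dystrophin, ran from 55.0 to 909 CPM in L4, with reads in every cell and a median of 234, and from 0 to 754 CPM in L5, with reads in 10 cells and a median of 6.48. The layers overlapped in their upper range, and the difference of -4.09 was -5.21, -2.21 and -5.00 on the 3 dates. *Olfm3* (chromosome 3, 114904078 to 115125722), a secreted olfactomedin-domain protein, had a median of 100.9 CPM in L4 and 0 in L5, with highest cells of 674 and 142.9 CPM and reads in 12 and 3 cells. The 4 L4 cells without it were the 4 cells of 5 June, and the difference of -4.09 was -6.81, -7.27 and -4.18 on the 3 dates that held both layers.

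*Ncald* (chromosome 15, 37366175 to 37792570), which encodes the neuronal calcium sensor neurocalcin delta, was read in all 16 L5 cells, at 83.7 to 919 CPM with a median of 572, and in 12 of 16 L4 cells, at 0 to 1076 CPM with a median of 177.7. The layers overlapped, and only L4 had cells at 0. The difference of 2.84 was 4.25 on 26 June and 1.11 on 3 July but -0.26 on 27 June, so *Ncald* was not among the 223 genes.

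**Figure D2:**
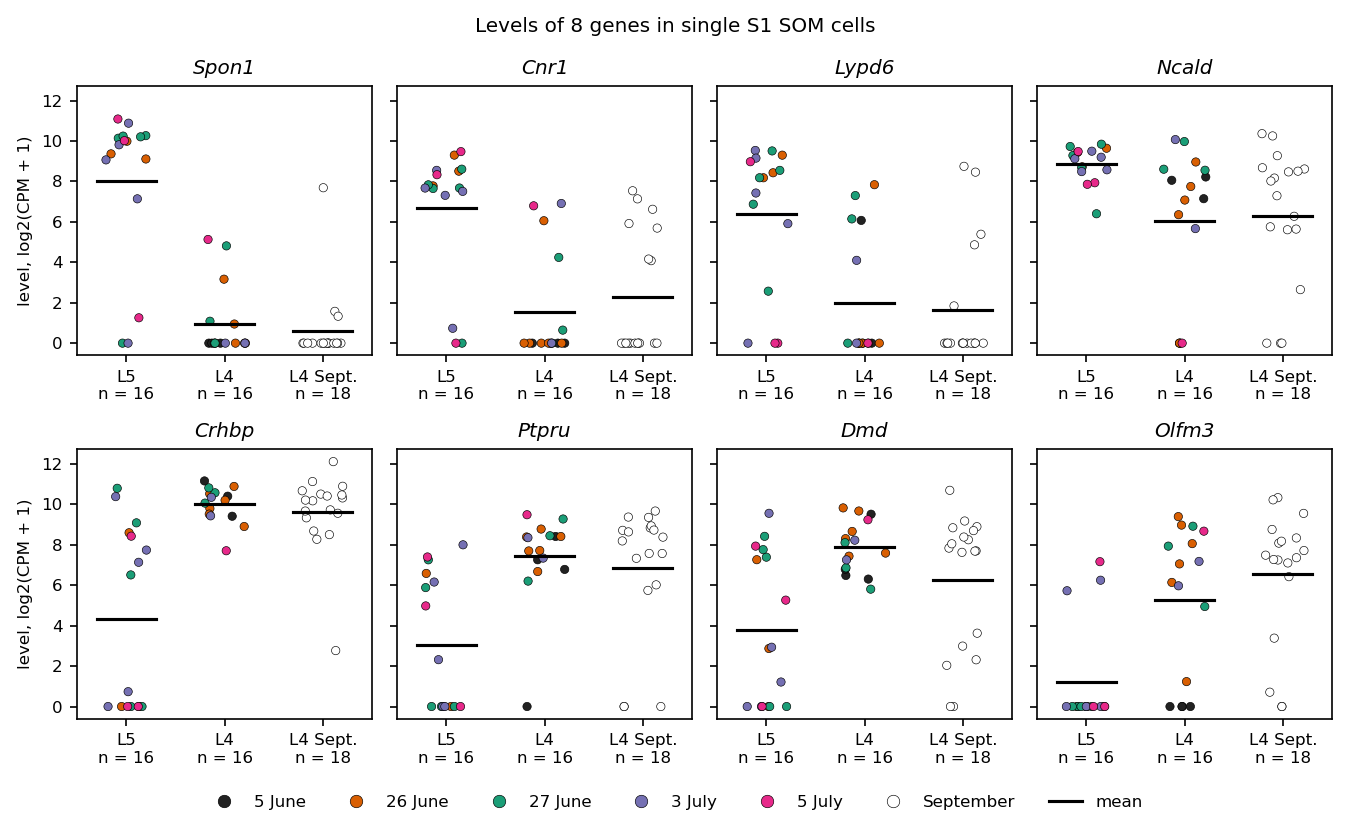
Each point is the level of a gene in 1 S1 cell, as log2(CPM + 1) on the y axis, in the 16 L5 and 16 L4 cells compared, coloured by label date, and in 18 L4 cells of September (white), with the mean as a line. *Spon1* was high in 13 L5 cells and near 0 in 3, and *Olfm3* was at 0 in the 4 L4 cells of 5 June.

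After *Spon1*, the genes with the largest differences toward L5 and 1 sign on the 3 dates were *Cnr1* (5.14), *Kcnip4* (4.47), *Lypd6* (4.45), *Camkv* (4.19), *Trhde* (3.91), *Sema3e* (3.85), *Hectd3* (3.83), *Ap3m2* (3.81), *Timp3* (3.79), *Ralyl* (3.78) and *Trim44* (3.57). *Cnr1*, the CB1 cannabinoid receptor, ran from 0 to 712 CPM in L5 and from 0 to 119.4 CPM in L4, the medians being 211 and 0 CPM. It had reads in 14 L5 and 5 L4 cells, and the difference was 7.52, 4.73 and 2.90 on the 3 dates but -0.86 on 5 July, which held 1 L4 cell. *Kcnip4*, which encodes a protein that modulates Kv4 potassium channels, had a median of 98.6 CPM in L5 and 0 in L4, with highest cells of 821 and 89.3 CPM. Most L4 cells were thus without a read of these genes. *Lypd6*, a Ly6-family protein that binds nicotinic acetylcholine receptors, had a median of 289.9 CPM in L5 and 0 in L4, with reads in 13 and 5 cells.

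The next genes on the L5 side overlapped more. *Camkv*, a calmodulin-binding pseudokinase of vesicles, had a median of 137.8 CPM in L5 and 1.91 in L4, but the highest cell was at 1606 CPM in L5 and 1609 in L4. *Trhde*, the ectoenzyme that degrades thyrotropin-releasing hormone, had a median of 122.3 CPM in L5 and 0 in L4, with reads in 14 and 5 cells, and a difference of -2.01 on 5 July. *Sema3e*, a secreted semaphorin, reached 307 CPM in L5 and 25.3 in L4, with reads in 13 and 3 cells. *Ralyl*, a gene of an RNA-binding protein, was one of the steadier ones, at 2.81, 2.46 and 5.76 on the 3 dates, and had reads in 14 L5 and 8 L4 cells. *Ap3m2* (a subunit of the AP-3 adaptor) had medians of 222 and 0.463 CPM, and *Trim44* (a tripartite motif protein) of 81.6 and 4.71 CPM. The ubiquitin ligase gene *Hectd3* had a difference of 0.63 on 3 July and *Timp3*, a metalloproteinase inhibitor, one of 0.67, below their values on the other dates.

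On the L4 side the genes with the largest differences were *Crhbp* (-5.68), *Col11a1* (-4.54), *Ptpru* (-4.42), *Dmd* (-4.09), *Olfm3* (-4.09), *Ptprd* (-4.00), *Npnt* (-3.73), *Ust* (-3.72), *Flt3* (-3.63), *Cpne5* (-3.42), *Chrna4* (-3.39) and *Tgfb3* (-3.32). *Crhbp* (chromosome 13, 95431371 to 95444924) encodes the secreted protein that binds corticotropin-releasing hormone. It was read in 16 of 16 L4 cells, from 208 to 2292 CPM with a median of 1244, and in 9 of 16 L5 cells, from 0 to 1781 CPM with a median of 45.5. L4 cells varied little, with a mean log2(CPM + 1) of 10.02 ± 0.87, while L5 cells, at 4.34 ± 4.51, ran from none to the L4 range. The difference was -7.11, -5.21 and -4.69 on the 3 dates. Pooled CPM, which weight the cells with many reads, were 350.3 in L5 (95% Poisson interval 342 to 359) and 1225 in L4 (1211 to 1240.2).

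*Col11a1*, the alpha 1 chain of collagen XI, had a median of 254 CPM in L4 and 0 in L5, with reads in 14 and 5 cells, although the highest cell of all, at 1434 CPM, was an L5 cell. The receptor tyrosine phosphatase genes *Ptpru*, whose promoter is shown above, and *Ptprd* had medians of 268 and 128.5 CPM in L4 and of 1.99 and 1.24 CPM in L5. *Ptpru* had reads in 15 L4 and 8 L5 cells, and *Ptprd* in 16 and 8. Nearly every L4 cell thus had both genes. *Npnt*, the matrix protein nephronectin, and *Ust*, a sulfotransferase that modifies proteoglycan chains, had reads in 12 and 12 L4 cells and in 6 and 3 L5 cells. *Flt3*, a receptor tyrosine kinase, had reads in 14 L4 and 6 L5 cells and differences of -3.24 and -2.74 on 26 and 27 June. With the 1 L4 cell of 5 July, the differences of *Npnt*, *Ust* and *Ptprd* on that date were 2.46, 0.91 and 1.41, opposite to the other dates. *Cpne5*, a copine that binds membranes in the presence of calcium, had medians of 123.7 CPM in L4 and 0 in L5, and the growth factor gene *Tgfb3* of 183.02 and 2.98 CPM.

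**Figure D3:**
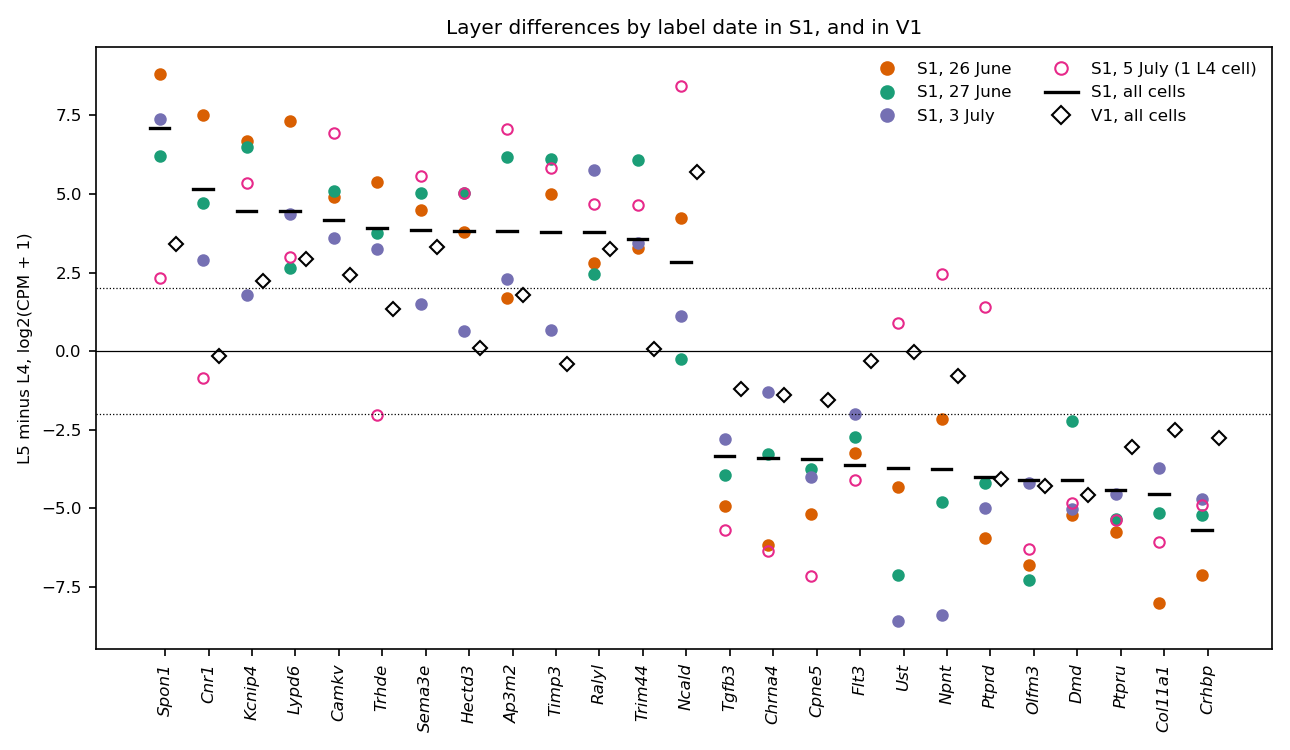
The plot gives L5 minus L4 on the log2(CPM + 1) scale for the 12 genes with the largest difference each way and *Ncald*. Circles are S1 differences within 1 label date (open for 5 July, with 1 L4 cell), bars are over all S1 cells, and diamonds are V1 differences. The 24 genes kept 1 sign on 26 June, 27 June and 3 July by the rule that chose them, and *Ncald* did not.

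Among the L5 cells, 3 stood apart from the 13 others. They were cell 8 of 27 June, cell 12 of 3 July and cell 14 of 5 July, which had *Spon1* at 0, 0 and 1.39 CPM. *Hpse*, the gene of heparanase, was at 402, 380 and 251 CPM in these cells. It did not by itself set them apart, as 3 of the 13 others had reads of it, at up to 684 CPM. *Col11a1* was at 259 to 1434 CPM in these 3 cells and at 0 to 47.0 CPM in the 13 others, of which 2 had a read. *Dmd* was at 244 to 754 CPM in the 3 and had a median of 1.32 CPM in the 13, and *Ptprd* was at 35.1 to 674 CPM and had a median of 0. In *Dmd* and *Ptprd* the 3 cells lay within the L4 range, whereas in *Col11a1* 1 of them lay above every L4 cell. *Hectd3*, in contrast, had reads in all 3, at 93.7 to 145.3 CPM, as in most other L5 cells. The 3 cells were picked out after their values were seen, carried 5505 to 7802 detected genes, within the range of the other L5 cells, and came from 3 dates.

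Cells were also compared over many genes at once. For each cell, the 5 cells of other dates with the highest correlation over the 1000 most variable genes were found. On average 66.25% of the neighbours of an L5 cell were L5 cells, beside 47.4% of the cells that could have been chosen, and 67.5% of those of an L4 cell were L4 cells, beside 47.5%. The SD of these shares over dates was 11.02 percentage points over 4 dates for L5 and 19.6 over 5 dates for L4. For L5 cells 8, 12 and 14 only 20% of the neighbours were L5 cells, whereas each of the 13 others had 60% or more. With the named genes left out, the 3 cells had 40% each and the 13 others 40% to 100%, so the 3 no longer lay below all the others. The mean was then again 66.25% over L5 cells and was 55% over L4 cells. Pairs of cells of different dates had a median Pearson correlation of 0.283 within L5 (94 pairs), 0.273 within L4 (95 pairs) and 0.244 between layers (210 pairs), and the ranges overlapped.

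The 4 L4 cells of 5 June, a date without an S1 L5 cell, differed from the 12 other L4 cells. *Hpse* had reads in 0 of 4 and 10 of 12, and *Olfm3* in 0 of 4 and 12 of 12. *Calb1*, the calcium-binding protein calbindin, had reads in 3 of 4, at up to 2700.2 CPM, and in 2 of 12, at up to 385 CPM. *Cort*, the gene of the somatostatin-like peptide cortistatin, had reads in 4 of 4 and 3 of 12. These genes divided the 4 cells from the others, but *Crhbp* did not, at 682 to 2292 CPM in the 4 cells and 208 to 1898 CPM in the 12. *Dmd* was read in all 16. *Pvalb*, a marker of fast-spiking cells, had reads in 3 of the 4 cells, at up to 257 CPM, and in 3 of the 12, at up to 27.9 CPM. Of the neighbours of these 4 cells 20% to 60% were L4 cells, against 60% to 100% for the other 12, and 20% to 40% against 40% to 100% with the named genes left out. Without the 4 cells, 3.90% of the genes tested were higher in L5 and 1.93% in L4. They were described after their values were seen, and date and animal cannot be told apart.

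**Figure D4:**
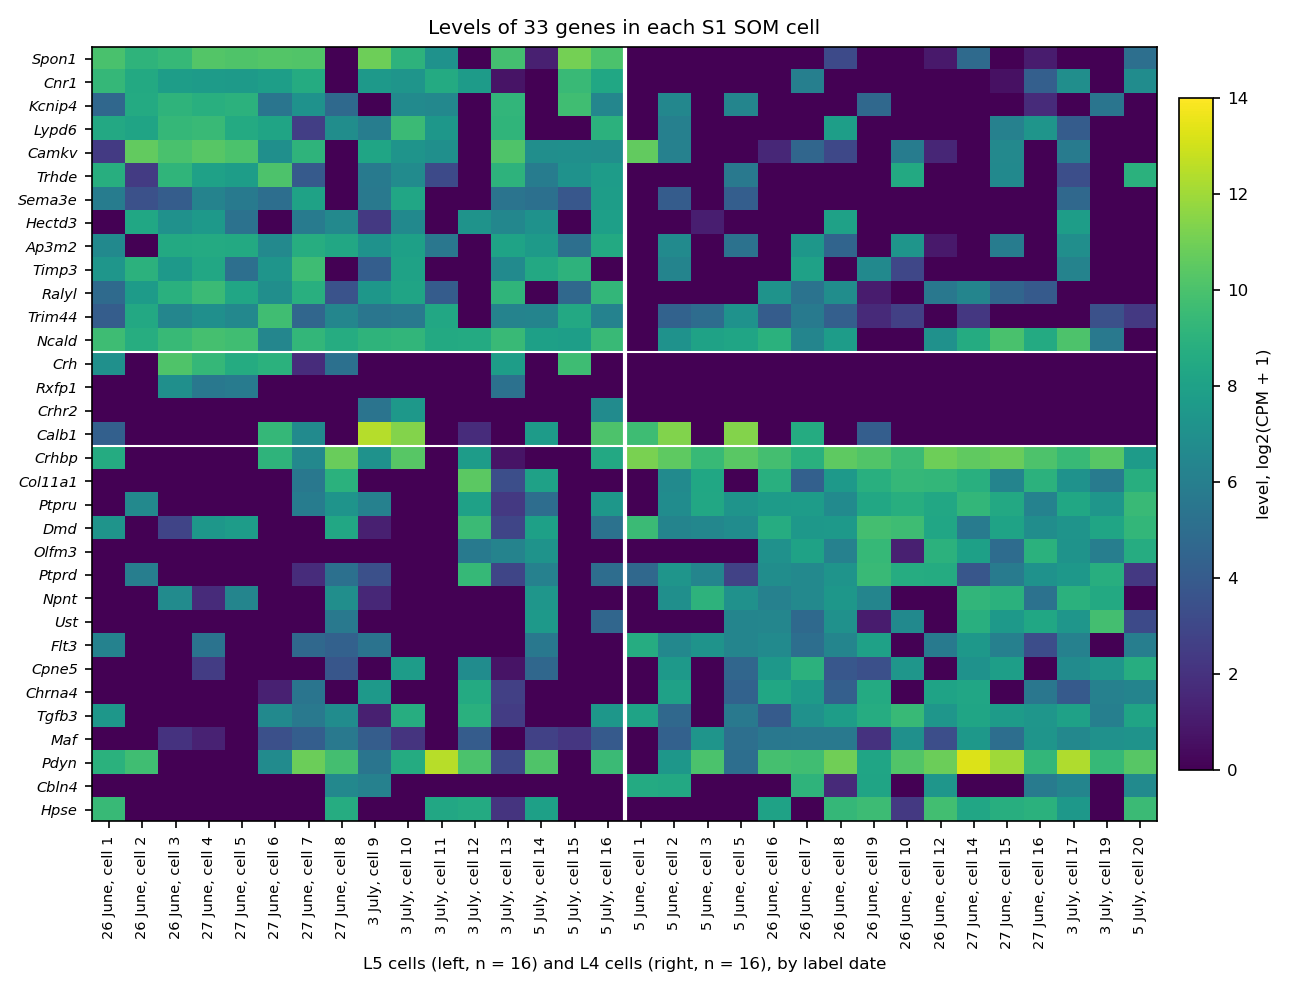
Each column is 1 of the 32 S1 cells, with L5 and L4 side by side in order of label date, each row is a gene, and the colour is log2(CPM + 1). The genes are those with the largest difference each way, *Ncald*, and others that divided cells within a layer, among them *Crh*, *Rxfp1*, *Crhr2*, *Calb1* and *Hpse*. *Spon1* was at or near 0 in L5 cells 8, 12 and 14, and *Crh* was at 0 in all 16 L4 cells.

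Among neuropeptides and their binding protein, 5 of 18 members passed the count filter and 2, *Crhbp* and *Pdyn*, were among the 78 genes higher in L4. *Crhbp* was already among the 12 genes picked by size. For this and each gene list below, the shares over all genes tested were 3.43% called higher in L5 and 1.2% in L4. With so few members past the filter, counts of called members only describe those members. *Pdyn*, which encodes the precursor of dynorphins, ran from 0 to 9844 CPM in L4 and from 0 to 5834 CPM in L5, the medians being 1004 and 437 CPM. It was read in 15 L4 and 12 L5 cells, so the layers overlapped widely, and its difference of -2.73 was -0.87 when cells without an *Sst* read were also used. *Npy*, the gene of neuropeptide Y, had a median of 827 CPM in L5 and 583 in L4 and a mean difference of -1.24, with 2 L5 cells and no L4 cell at 0. The receptors of peptides had 4 of 23 members past the filter and 0 among the genes higher in either layer.

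*Crh*, the gene of corticotropin-releasing hormone, the peptide that the *Crhbp* product binds, was read in 9 of 16 L5 cells (56.2%, 95% Clopper-Pearson interval 29.9 to 80.2) and in 0 of 16 L4 cells (0% to 20.6%). These intervals cover counting error only, and *Crh* also varied with the date, as described below. In the 9 cells it ran from 2.47 to 1142 CPM with a median of 396. L4 cells had 0 *Crh* reads in all, which allows a pooled level of up to 0.140 CPM, against 296 CPM in L5. With cells thinned to 250000 reads it was found in 8 of 15 and 0 of 16. *Crh* did not reach 32 counts in 10 cells and so was not among the 6492 genes. Of 15388 genes with any read, 3 had reads in at least 8 L5 cells and no L4 cell (0.0195%), which were *Crh*, *Eif4ebp1* and *Rad51ap2*. In the reverse direction there was 1 (0.0065%), *Cacng5*, which encodes a transmembrane regulator of AMPA receptors, with reads in 8 L4 cells at up to 315 CPM. The absence from L4 holds for the 16 L4 cells compared. Among the S1 L4 cells of September, *Crh*, *Eif4ebp1* and *Rad51ap2* each had a read, with highest cells at 1.15, 4.69 and 4.51 log2(CPM + 1).

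Within L5, *Crh* divided the cells along with other genes that give their names to SOM+ types in a published reference. *Rxfp1*, a relaxin receptor, had reads in 4 of the 9 *Crh* cells and in 0 of the 7 others. *Crhr2*, a receptor for peptides of the corticotropin-releasing hormone family, had reads in 3 cells, all among the 7 without *Crh*. Of the 16 cells, 6 had reads of *Crh* alone among *Crh*, *Hpse* and *Crhr2*, 3 had *Crh* and *Hpse*, 3 had *Hpse* alone, 3 had *Crhr2* alone and 1 had none of them. *Pdyn* had reads in 5 of the 9 *Crh* cells, with a median of 7.31 CPM, and in 7 of the 7 others, with a median of 820.1. *Crhbp* had reads in 5 of 9 and 4 of 7, with medians of 0.665 and 139.7 CPM. *Spon1* had reads in 8 of 9 and 6 of 7, with medians of 1127 and 536 CPM and mean log2(CPM + 1) of 9.01 and 6.78. Both genes were thus read in cells with and without *Crh*, though at different levels. All 5 L5 cells of 27 June had *Crh* reads and 1 of 5 of 3 July did, so date and *Crh* moved together. These groups were formed after the values were seen.

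Of the 30 reference type-name genes, 2 passed the count filter, *Hpse* and *Cbln4*. *Cbln4*, a secreted cerebellin that acts at synapses, was among the 78 genes, with reads in 9 L4 and 2 L5 cells and a difference of -3.09. *Hpse* had reads in 10 L4 and 6 L5 cells and a difference of -2.31, with 0.08 on 3 July, so it was not among the 78. *Calb2*, the gene of calretinin, had reads in 3 L4 and 0 L5 cells. *Chodl*, *Tacr3*, *Chrna2*, *Ptgdr*, *Tac2* and *Efemp1* were at 0 in all 32 cells, and *Tac1*, *Myh8* and *Nts* each had reads in 1 L5 cell, at 0.394, 0.783 and 1.39 CPM.

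Among ionotropic glutamate receptors, 13 of 18 members passed the filter, 0 were among the genes higher in L5, *Gria1* and *Grik3* were among those higher in L4, and the median difference was -0.24. Of all genes tested 3.43% were called higher in L5 and 1.2% in L4. *Gria1*, an AMPA receptor subunit, had a median of 1024 CPM in L4 and 682 in L5, with all 16 L4 cells between 296 and 2066 CPM and 2 L5 cells at 0. Its difference of -2.03 was -0.59 between medians over cells. The kainate receptor gene *Grik3* (-2.74) had reads in 14 L4 and 7 L5 cells. *Gria2* and *Grin1*, which were read in every cell, differed by 0.01 and 0.15. Of metabotropic receptors and the Elfn proteins 5 of 9 passed, with *Grm5* higher in L5 (3.01) and *Elfn1* in L4 (-2.49). *Grm5*, the metabotropic receptor mGluR5, had a median of 159.5 CPM in L5 and 7.95 in L4. *Elfn1*, a postsynaptic protein that shapes excitatory synapses onto SOM+ cells, was read in every L4 cell, at 26.97 to 761 CPM, and in 13 L5 cells, at 0 to 511 CPM.

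Of nicotinic receptors and their Ly6 modulators 7 of 15 passed, with *Lypd6* higher in L5 and *Chrna4*, the alpha 4 subunit, higher in L4, with reads in 12 L4 and 5 L5 cells. Of GABA-A receptor subunits 7 of 14 passed with a median of 0.80 and none was among the genes higher in either layer, *Gabrb2* (2.36) having a difference below 0 on 3 July. Of glycine receptor subunits *Glrb* alone passed, with means of 7.78 in L5 and 7.83 in L4.

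Among voltage-gated potassium channels and their partners, 22 of 39 members passed, 16 of them had a difference above 0, beside 3983 of all 6492 genes, and the median was 0.50. *Kcnip4* and *Kcnip2* (2.29), both partners of Kv4 channels, were among the genes higher in L5 and 0 members among those higher in L4. *Kcnc2*, a Kv3 subunit, had means of 8.22 in L5 and 5.56 in L4 but a difference of -1.21 on 3 July. *Kcnmb2*, a subunit of large-conductance calcium-activated channels, was the 1 called member (2.93) of 6 inward-rectifier, leak and calcium-activated channel genes that passed, of 21, with reads in 10 L5 and 3 L4 cells. *Scn3b*, a beta subunit of sodium channels, was the 1 called member (2.93) of 9 sodium channel genes that passed, of 13, with reads in all 16 L5 cells and 7 L4 cells. HCN and calcium channels had 14 of 24 members past the filter, 4 of them with a difference above 0, beside 3983 of all 6492 genes, and a median of -0.69. Among the 14, 0 were called in either direction. As 3.43% of all genes were called toward L5 and 1.2% toward L4, this is near the share over all genes and no result about the list.

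Of secreted matrix and olfactomedin proteins 13 of 29 passed, 2 of them among the genes higher in L5 and 3 among those higher in L4, beside 3.43% and 1.2% of all genes tested. These were *Spon1* and *Olfm1* (2.66) higher in L5 and *Olfm3*, *Npnt* and *Crtac1* (-2.26) higher in L4, and the list's median difference was -0.32. *Crtac1* pooled to 411 CPM in L5 and 391 in L4, so its direction turned when cells were pooled. *Olfm1* had reads in 15 L5 and 10 L4 cells, with medians of 145.3 and 14.02 CPM, but its difference was 0.01 on 3 July. Of semaphorins, neuropilins and plexins 13 of 28 passed, with *Sema3e* and *Sema3a* (3.21) higher in L5 and *Sema7a* (-2.15) higher in L4. *Plxnd1*, the receptor that binds the *Sema3e* product, was at 0 in all 32 cells. Of cadherins 12 of 23 passed, and *Cdh7* (-2.74) was read in 16 L4 cells and 11 L5 cells.

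Of receptor-type tyrosine phosphatases 12 of 17 passed, with *Ptprd* and *Ptpru* higher in L4 and a median of 0.51. The shares of all genes called were 3.43% toward L5 and 1.2% toward L4, and both genes were among the 12 picked by size. *Ptprs* and *Ptprn*, with means of 8.06 and 7.79 in L5 and 7.45 and 7.33 in L4, were not called. In the complex around dystrophin 8 of 18 members passed, with *Dmd* higher in L4 and *Sgce*, the gene of epsilon-sarcoglycan, higher in L5 (2.93). *Utrn*, the dystrophin relative utrophin, had means of 4.89 in L5 and 6.27 in L4, and *Dtna*, dystrobrevin alpha, of 6.53 and 5.60.

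**Figure D5:**
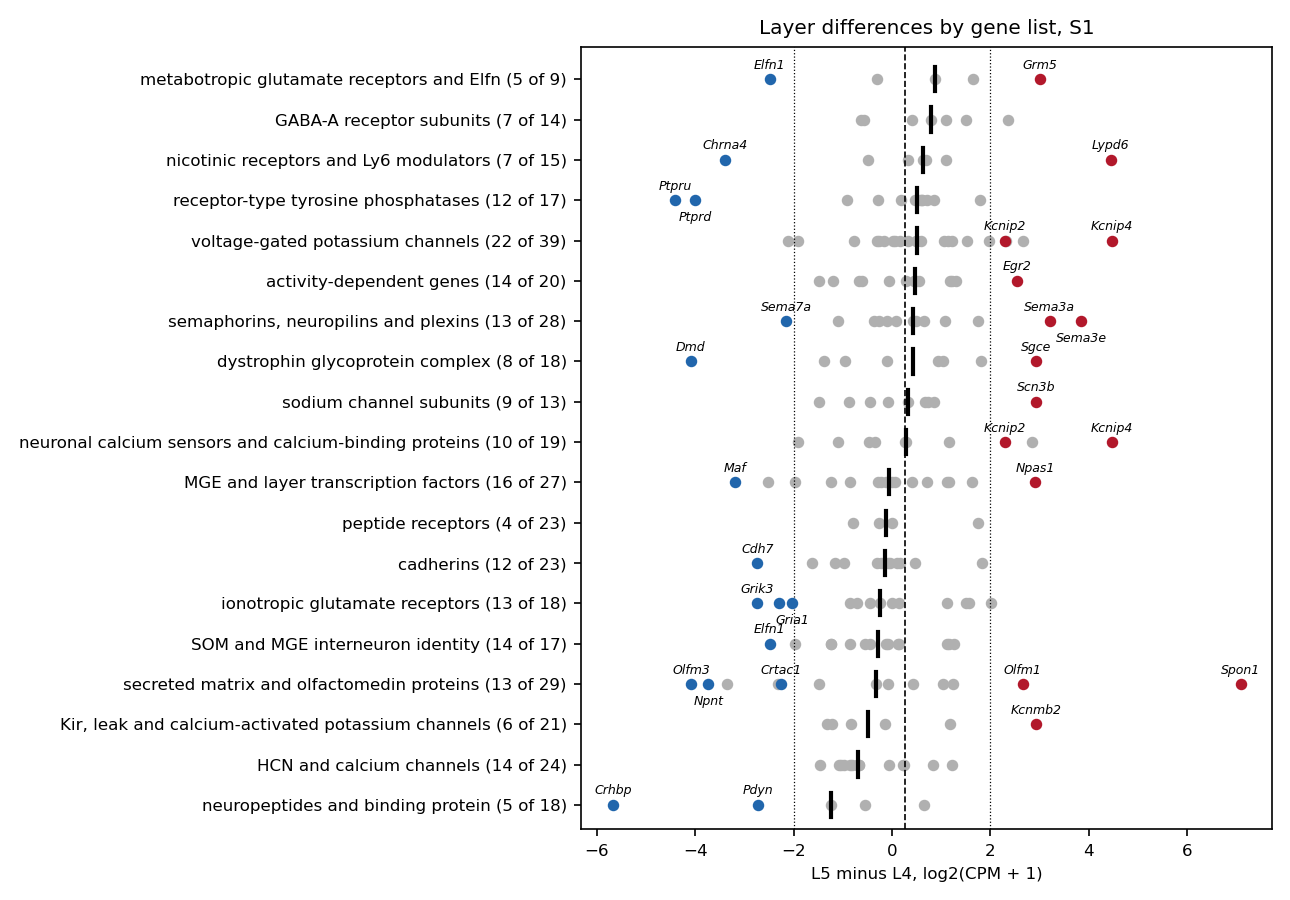
Each point is a gene past the count filter, placed by its difference (L5 minus L4, log2(CPM + 1)) beside the name of its list, for the lists with at least 4 such genes. Red and blue points are the genes called higher in L5 and in L4, black bars are list medians, the dashed line is the median of all genes at 0.27, and dotted lines mark differences of 2. The secreted matrix and olfactomedin list held 2 red and 3 blue genes, and the 14 HCN and calcium channel genes held none. Of all genes tested 3.43% were called higher in L5 and 1.2% in L4, so none among 14 is near the share over all genes.

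Among transcription factors of MGE cells and cortical layers 16 of 27 passed, with *Npas1* (2.92) higher in L5 and *Maf* (-3.19) higher in L4, beside 3.43% and 1.2% of all genes. *Maf*, a basic leucine zipper factor of MGE interneurons, had medians of 50.2 CPM in L4 and 3.45 in L5, with highest cells of 172.8 and 49.0 CPM, and differences of -4.22, -3.68 and -4.76 on the 3 dates. *Npas1* was read in all 16 L5 cells, at 8.32 to 461 CPM, and in 10 L4 cells. Of activity-dependent genes 14 of 20 passed, with *Egr2* higher in L5 (2.54), while *Fos* (-0.67) and *Egr1* (-0.06) had reads in all 32 cells and were not called.

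Identity genes of SOM+ and MGE interneurons were read in both layers. *Sst* had a median of 1322 CPM in L5 and 1335 in L4 and a difference of -0.54, and *Gad1* and *Gad2* differed by -0.12 and 0.12. Since *Sst*, *Gad1* and *Gad2* chose the cells, their presence is no result. Of 17 identity genes 14 passed, and *Elfn1* alone was called, beside 3.43% of all genes called toward L5 and 1.2% toward L4. *Sox6* and *Lhx6*, transcription factors of the MGE lineage, differed by -1.97 and -1.24. *Slc17a7*, used to leave out excitatory cells, had reads in 3 L5 and 2 L4 cells, at up to 112.4 CPM, and *Pvalb*, a marker of fast-spiking cells, in 7 and 6, at up to 115.7 and 257 CPM. The 10 excitatory neuron markers summed to 1.84 to 1002 CPM in L5 and 96.0 to 1081 CPM in L4, and *Neurod1* was at 0.

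Markers of glia moved in part with the layer. *Mbp*, a myelin gene of oligodendrocytes, was read in 15 L5 and 10 L4 cells and was among the 223 genes with a difference of 2.41, yet its pooled level was 602 CPM in L5 and 506 in L4. The 10 oligodendrocyte markers together ran from 0 to 5657 CPM in L5 (median 322) and from 0 to 4968 CPM in L4 (median 256), with 9 and 8 members read and *Olig2* at 0. *Aldoc* of the astrocyte list was among the 78 genes (-2.20), while the list as a whole had medians of 150.6 CPM in L5 and 160.1 in L4 and highest cells of 2277 and 1462 CPM. The 10 microglia markers had medians of 90.6 and 250 CPM, with 9 and 10 members read, and vascular markers reached no more than 8.48 CPM in L5 and 124.4 in L4. Without the 10 cells that had 1000 CPM or more of the oligodendrocyte list, an alternative added after seeing the data, 6.50% of the genes tested were higher in L5 and 2.05% in L4. The condition on sign then covered 2 dates and was easier to meet. The part of glial RNA in other differences was not tested.

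The 18 S1 L4 cells of September, which the choice of genes did not use, had levels that can be set beside the others. *Crhbp* was read in 18 of 18, with a mean log2(CPM + 1) of 9.64 ± 1.96, beside 10.02 in the L4 cells compared and 4.34 in L5. *Olfm3*, *Col11a1*, *Npnt* and *Flt3* had means of 6.57, 7.46, 5.73 and 5.35, beside 5.28, 6.82, 5.66 and 5.60 in the L4 cells of the earlier months. *Ust* had a mean of 2.67, beside 4.84 in L4 and 1.12 in L5, and so lay between the layers. *Spon1* was read in 3 of 18, with a mean of 0.59, but its highest cell, at 7.69, lay above every L4 cell of the earlier months and within the range of the 13 L5 cells. *Kcnip4* (1.77) and *Lypd6* (1.63) also had low means, with highest cells at 7.55 and 8.75, whereas *Ap3m2* (4.07) and *Trim44* (3.49) lay between the L4 and L5 means. *Egr2* was at 5.09, above both L5 (4.39) and L4 (1.86), and *Mbp* at 8.57, beside 8.07 and 5.66.

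V1 cells of the same months, none of them shared with S1, gave the same kind of difference, V1 L5 minus V1 L4. Most of the V1 L4 cells had dates in early June that held no V1 L5 cell. Only 2 V1 dates held at least 2 cells of each layer, so layer and date cannot be fully told apart in V1. Of the 223 genes higher in S1 L5, 160 (71.7%) were also higher in V1 L5, beside 55.7% of all 6492 genes, and 24 (10.8%) by 2 or more, beside 5.08%. Of the 78 genes higher in S1 L4, 57 (73.1%) were higher in V1 L4, beside 44.3%, and 18 (23.1%) by 2 or more, beside 2.90%. Across the 6492 genes, which are not independent and share libraries and depth, the S1 and V1 differences had a Pearson r of 0.211. *Dmd* (-4.56), *Olfm3* (-4.30), *Ptprd* (-4.06), *Cbln4* (-3.69), *Sema3e* (3.30), *Ralyl* (3.25) and *Kcnmb2* (3.24) had V1 differences close in size to those in S1, and that of *Ncald* was 5.70. *Spon1* was 3.41 higher in V1 L5, with reads in 9 of 17 V1 L5 and 4 of 21 V1 L4 cells, and *Crhbp* had a difference of -2.76. *Cnr1* (-0.16), *Hectd3* (0.10), *Trim44* (0.09), *Grm5* (0.05), *Ust* (-0.03) and *Flt3* (-0.31) were near 0 in V1. Whether the S1 and V1 differences of a gene differ was not tested.

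In V1 L5, *Crh* was read in 9 of 17 cells. *Crhbp* had reads in 3 of these 9 and in 8 of the 8 others, beside 5 of 9 and 4 of 7 in S1. *Spon1* had reads in 7 of 9 and 2 of 8, and *Pdyn* in 1 of 9 and 5 of 8. *Rxfp1* was read in 1 of the *Crh* cells of V1 and in 0 of the others. *Crhr2*, which in S1 was read in no *Crh* cell, had reads in 2 of the 9 *Crh* cells of V1, at up to 772 CPM, and in 2 of the 8 others.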

How the data were processed

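Single SOM+ cells were sequenced after patch-clamp recording. Per the labels and the study's methods, the authors used bcl2fastq 2.20, aligned reads with STAR 2.4.2a to mm10, and deposited read counts per gene and RPKM values made with RefSeq gene models, without pooling cells. Whether counting used strand is not given in the sources used here.

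Here the deposited counts were scaled to CPM, with 1 added before log2, and no mouse being named, layers were compared by means over cells without a test. Genes needed 32 counts in 10 of the 32 cells. A gene was called at a difference of at least 2 with 1 sign on the 3 dates holding at least 2 cells of each layer. Of 24490 gene entries, 23998 symbols were used, and no 2 cells had identical counts. Thinned values used 250000 reads drawn without replacement. Neighbours used the 1000 most variable genes, with cells of the same date left out. Intervals are 95% exact Poisson or Clopper-Pearson intervals, and 0 reads was read as allowing up to 3.

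Named genes were the 4 markers given for these cells, the 12 largest differences each way that kept their sign over dates, and, of 30 gene lists, up to 5 called members and up to 4 of the highest, with *Sst* and the reference type-name genes, 164 in all, some of which are not reported here. Genes named outside this rule were chosen after their values were seen. The members and lists were chosen with earlier results of these data known. Coordinates are from GENCODE M21 and promoters from RefSeq. Alternatives used edgeR 4.0.16 (TMM) and DESeq2 1.42.0 size factors in R 4.3.3, the deposited RPKM, other pseudocounts, filters and thresholds, and each date left out. Scripts ran in Python 3.11.15 and were tested on simulated data.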

Additional observations from a re-analysis of the deposited data

Results flagged for a closer look

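In *Sema7a*, a membrane-anchored semaphorin, the V1 difference was 0.43 toward L5, whereas the S1 difference was -2.15, and each V1 date with at least 2 cells of each layer went against the 3 S1 dates. In *Timp3*, the V1 difference was -0.40 and the S1 difference 3.79, again with every such date opposite. These were 2 of the 45 named genes that were called in S1, and there were 2 such V1 dates. Whether the differences of the areas differ was not tested.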

How the results depend on the processing

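No paired analysis was possible because the replicate numbers in the labels only name cells, and layers were compared within label dates instead. The shares of tested genes higher in L5 and in L4, 3.43% and 1.20% as reported, were 7.61% and 2.77% with a pseudocount of 0.1, 0.262% and 0.169% with 10, 1.63% and 0.585% with RPKM, 6.12% and 2.73% with medians over cells, 5.99% and 3.16% with means within dates, and 0.863% and 0.447% with pooled CPM. They were 1.96% and 0.689% with no filter on low counts, 2.28% and 0.822% with S1 L4 cells of all dates, 5.80% and 3.44% without cells that had a *Pvalb* read, 10.4% and 4.71% at a difference of at least 1, and 0.616% and 0.262% at 3. With 1 date left out they ran from 3.90% to 6.93% and from 1.40% to 2.91%. Among alternatives chosen after seeing the data, they were 2.17% and 2.05% with the median taken off, 4.60% and 3.18% in cells with 5000 to 8500 detected genes, and 6.50% and 2.05% without cells rich in oligodendrocyte markers. The condition on sign covered 1 date without *Pvalb* cells. It covered 2 dates in the last 2 of these alternatives and where a date with at least 2 cells of each layer was left out. With fewer dates it is easier to meet, so these shares are not like measures of the 3.43% and 1.20%. TMM and DESeq2 factors gave 3.64% and 1.14%, and 3.60% and 1.19%. A like share does not mean that the same genes were called. Of the 223 and 78 genes, 221 and 72 were also called with TMM factors, but 46 and 22 with pooled CPM. With a pseudocount of 10 it was 15 and 11, and 58 and 25 without *Pvalb* cells, where 3223 genes were tested. The value of L5 minus L4 of Crtac1 turned to 0.0735 with pooled CPM and to 0.306 without cells that had a *Pvalb* read. Of 945 values of the 45 called named genes over 21 alternatives, these 2 were opposite in sign, 130 moved by more than the SD of the difference over dates and 813 did not. That SD covers 3 dates and is wider for a gene that varies between them, so the 813 are no measure of stability. Nor do they show that a call held. With pooled CPM, for example, *Tgfb3*, *Grm5* and *Mbp* were at -0.86, 0.88 and 0.25, short of the size of 2. Neighbour shares ran from 50.9% to 76.25% in L5 and from 54% to 72% in L4 with 1 date left out, and were above the share that could have been chosen in each alternative. Mice cannot be told apart from dates, and low counts limit genes read in few cells.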
